A study of Mus musculus with 2 samples.

Results

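The genes described here are 46 genes of DNA replication and origin licensing, taken by name: every row of the deposited tables whose symbol is on the list of replication and licensing genes, 46 of 27179 gene rows, with both libraries used. The rule itself uses no measured value. All 46 symbols were found, each in 1 row. The cells were group 2 innate lymphoid cell progenitors (ILC2 progenitors), the stage in bone marrow from which type 2 cytokine-producing innate lymphocytes arise, sorted by flow cytometry from C57BL/6 mice, marked WT in the file headers, 8 weeks of age. RNA was sequenced in 2 libraries of this 1 group, called pool 2 and pool 1, each from a pool of 8 mice, and no other group or treatment was part of the data. Neither the sort antibodies nor the animals' sex was given in the sources used here.

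Before a cell copies its DNA, the origin recognition complex (Orc1 to Orc6) and the loaders Cdc6 and Cdt1 place the ring-shaped MCM2-7 helicase on replication origins, a step called licensing. Geminin (Gmnn) binds Cdt1 and blocks further loading once S phase has begun. Cdc45 and the GINS proteins then join the ring to make the active helicase, primase and the polymerases copy the strands, and PCNA, loaded by the RFC complex, clamps the polymerases to DNA. Many of these genes are induced at the border of G1 and S phase by E2F transcription factors, and lymphocytes use them most when a population expands. Resting cells keep part of the machinery, so that levels of single members differ in how closely they follow S phase.

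Because promoter sequences of this family are a textbook site of E2F control, exact E2F-type letters were looked for in the RefSeq promoter windows, from 250 bases before to 50 bases after each annotated start (GRCm38.p6, the mm10 build). The letters were TTTCCCGC, TTTGGCGC, TTTCGCGC or TTTGCCGC on either strand. Windows were given for 38 of the 46 members, and 14 of these 38 (36.8%) held at least 1 match, against 704 of 27025 genes (2.60%) in the whole table. With the 250 bases before the start alone, 10 of 38 members (26.3%) and 2.16% of all genes held one. The sequences below are shown because they hold these letters, on the strand of the gene and from 5′ to 3′. The capitals mark the match, which reads as the reverse complement where the letters lie on the other strand.

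The Mcm6 and Mcm5 promoters are given as the 250 bases before the start, since each holds a pair of overlapping matches, and Mcm6 a further match closer to the start.
Mcm6, chr1:128359706-128359955, minus strand: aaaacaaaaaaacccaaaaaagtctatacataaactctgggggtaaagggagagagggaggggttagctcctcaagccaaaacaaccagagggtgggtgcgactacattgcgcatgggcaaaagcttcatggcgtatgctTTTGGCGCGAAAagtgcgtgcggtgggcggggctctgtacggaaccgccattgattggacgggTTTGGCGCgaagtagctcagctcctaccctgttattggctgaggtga
Mcm5, chr8:75109259-75109508, plus strand: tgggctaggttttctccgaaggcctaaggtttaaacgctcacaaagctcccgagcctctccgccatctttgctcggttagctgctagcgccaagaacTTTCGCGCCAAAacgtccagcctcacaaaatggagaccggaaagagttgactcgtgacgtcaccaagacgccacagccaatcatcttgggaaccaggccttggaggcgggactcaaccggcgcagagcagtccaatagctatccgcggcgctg

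For the other 12 members, 1 match each is marked and shown with up to 10 bases on either side. The lower-case letters gcgggaaa that end the Rfc3 window are a further match.
Mcm7, chr5:138172031-138172058, minus strand: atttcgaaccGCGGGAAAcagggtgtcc
Mcm3, chr1:20820276-20820303, minus strand: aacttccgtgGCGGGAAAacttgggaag
Orc1, chr4:108579417-108579444, plus strand: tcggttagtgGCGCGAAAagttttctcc
Orc3, chr4:34614966-34614993, minus strand: catgcctcccTTTCCCGCacgccccgcc
Cdc6, chr11:98908003-98908030, plus strand: ccggtggagaGCGGGAAAtcgcctgggg
Cdt1, chr8:122568037-122568064, plus strand: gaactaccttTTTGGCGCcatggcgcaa
Gins3, chr8:95633508-95633535, plus strand: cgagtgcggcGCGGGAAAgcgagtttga
Pola1, chrX:93632276-93632303, minus strand: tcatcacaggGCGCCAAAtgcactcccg
Pold1, chr7:44548766-44548786, minus strand: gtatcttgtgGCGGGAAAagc
Rfc3, chr5:151651201-151651228, minus strand: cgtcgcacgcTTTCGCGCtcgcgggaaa
Lig1, chr7:13278842-13278869, plus strand: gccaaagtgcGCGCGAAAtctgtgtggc
Uhrf1, chr17:56304118-56304145, plus strand: ccgagtcgggTTTCGCGCgcccaggcgt

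Of the 20 matches in these 14 genes, 13 began before the start. The Lig1 and Uhrf1 matches belong to the second of their annotated starts. CCAAT, the letters that the factor NF-Y binds, was found on either strand in 24 of 38 members (63.2%) and in 41.1% of all genes. TTTGAA, the core letters of the cell cycle element called CHR that marks many mitotic promoters, was found in 4 of 38 members (10.5%), Mcm2, Cdc45, Gins3 and Fen1, and in 20.2% of all genes. A match is a description of letters and shows no binding, and the absence of a match says only that these letters are not in these windows. The windows of Gins1, Gins2, Gins4, Gmnn, Mcm4, Pole, Prim2 and Rfc2 were not analysed here.

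**Figure D1:**
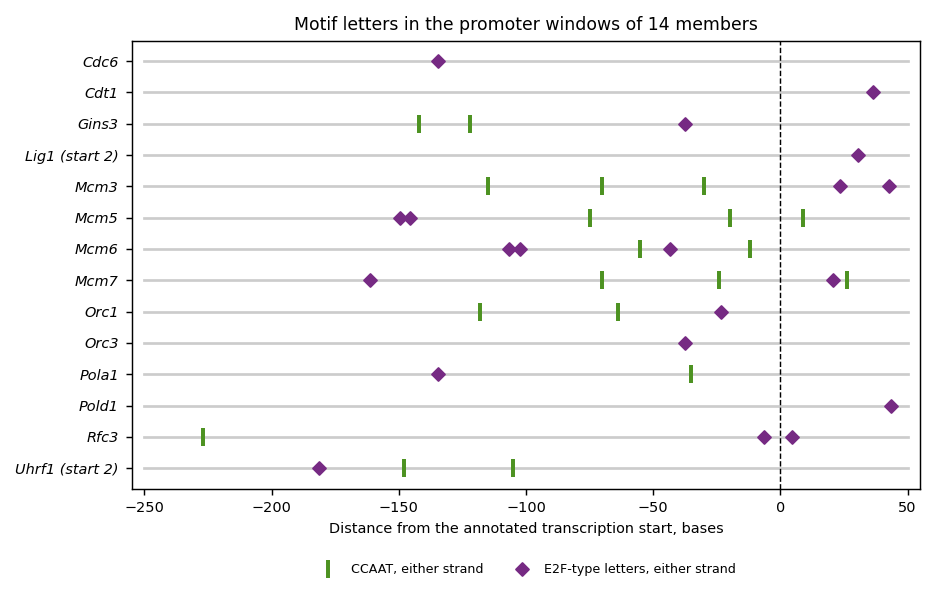
Positions of the motif letters in the promoter windows of the 14 members with at least 1 E2F-type match; the horizontal axis is the distance in bases from the annotated start (dashed line), diamonds are E2F-type letters and green bars are CCAAT, both on either strand. Of the 20 diamonds, 13 begin before the start, and the matches of Mcm6 and Mcm5 include overlapping pairs.

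The authors deposited RPKM, read values scaled to gene length and sequencing depth, which allow levels of different genes to be set side by side. The depth was 19834586 reads in pool 2 and 20216146 in pool 1, recovered from the steps between the deposited values, and 3 reads over 1 kb correspond to 0.151 RPKM in pool 2, against 0.148 in pool 1. In 2 of 2 files the heading over the values names the code of the other library. Each file was used under the sample it was deposited for, and if the headings are right, the names pool 2 and pool 1 exchange in every difference below. All 12 listed ILC2 marker genes reached 1 RPKM in both pools, against 40.5% of all gene rows. Among them Gata3, the factor that ILC2 depend on, was at 250 RPKM in pool 2, against 292 RPKM in pool 1. The log2 ratios of pool 2 over pool 1 of the 12 ran from -1.31 to 0.59. With 1 library on each side, no difference between them could be checked in replicates, and no p-value is given. Bulk RNA of a pool does not tell apart more cells of a kind and more RNA per cell.

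The sorted ILC2 progenitor pools held RNA of nearly the whole replication machinery, with a median close to that of all detected genes. The detection threshold was 1 RPKM, to be reached in both pools, and 43 of 46 members (93.5%) passed it, against 40.5% of all gene rows. The 3 others were Orc1, Mcm10 and Cdc6. The median member stood at 15.3 RPKM in pool 2, against 13.4 RPKM in pool 1, and the median of all detected genes at 14.9 RPKM in pool 2, against 14.2 RPKM in pool 1. On the log2(RPKM + 0.1) scale the members' median level was 3.81 ± 0.14 (SD over the pools, n = 2). Of the members, 10 averaged 30 RPKM or more, 22 between 10 and 30, 12 between 1 and 10 and 2 less than 1. The highest were Mcm6 at 61.3 ± 8.27 RPKM (SD, n = 2) and Pcna at 60.7 ± 7.01, ranks 1434 and 1449 of all gene rows, and the lowest was Orc1 at 0.424 ± 0.158.

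**Figure D2:**
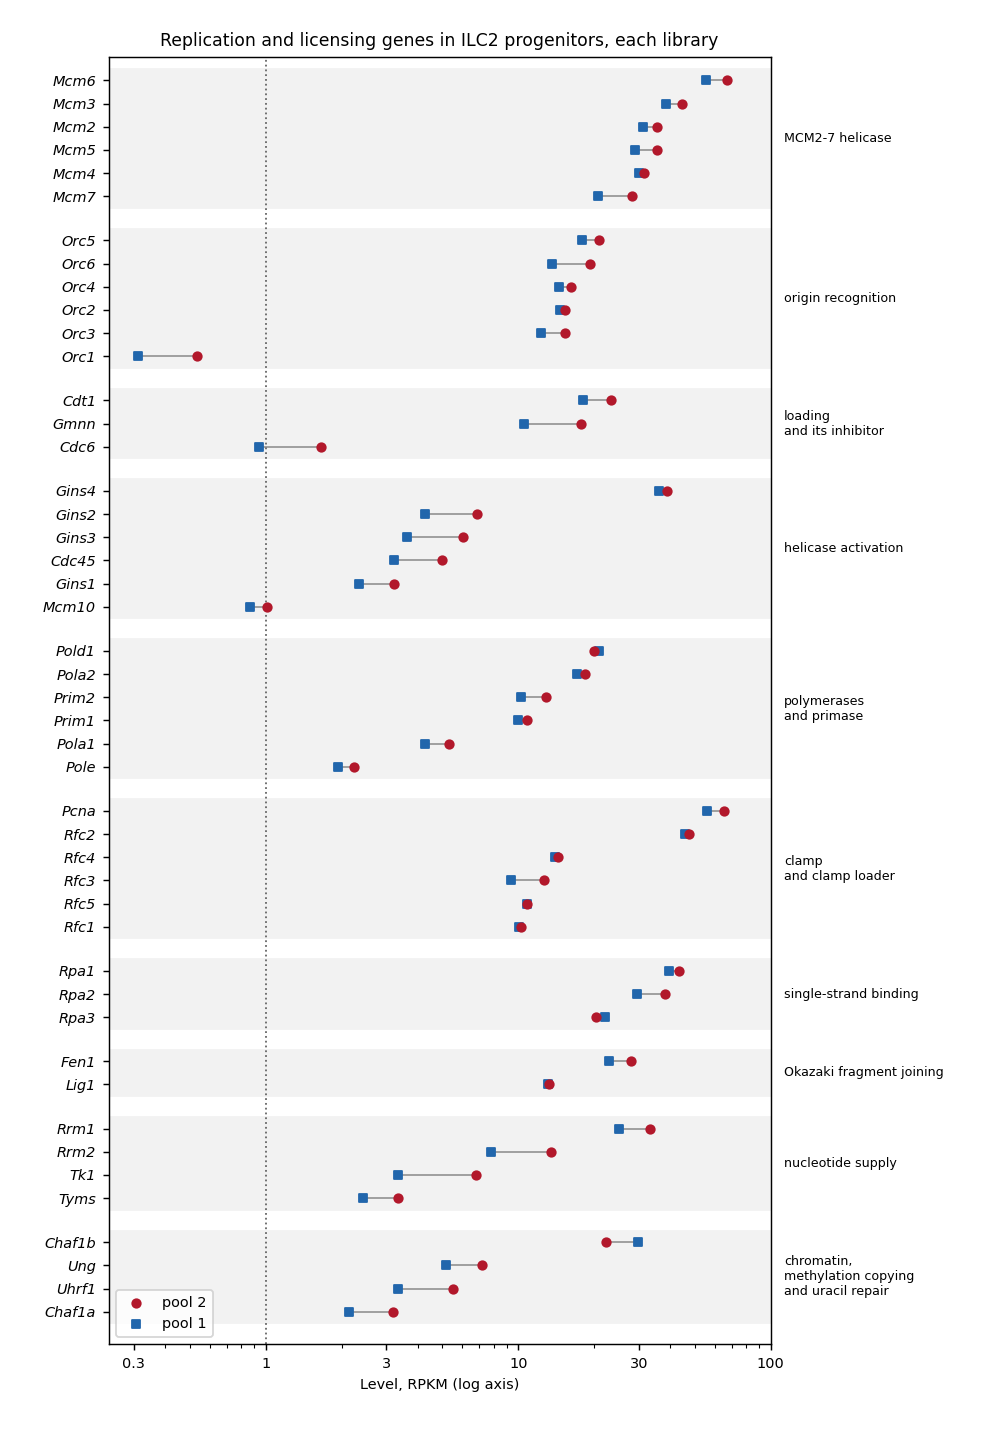
Level of each of the 46 members in RPKM on a log axis, with pool 2 as red circles and pool 1 as blue squares, grouped by role; the dotted line marks the detection threshold of 1 RPKM. Most members lie between 10 and 70 RPKM, Orc1 lies lowest, and pool 2 lies to the right of pool 1 for 42 of 46.

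The MCM2-7 helicase subunits, which work as a ring with a copy of each, were abundant and close to each other. Mcm6 (chromosome 1, 128331590 to 128359664) was at 67.1 RPKM in pool 2, against 55.4 in pool 1. Mcm3 was at 44.4 RPKM in pool 2, against 38.4 in pool 1. Mcm2 was at 35.6 RPKM in pool 2, against 31.1 in pool 1. These were the upper subunits. All 6 were higher in pool 2, against 57.3% of all detected genes, and the counting interval of Mcm4's ratio (0.982 to 1.11) includes 1. Mcm5 was at 35.5 RPKM in pool 2, against 29.1 in pool 1. Mcm4 was at 31.5 RPKM in pool 2, against 30.2 in pool 1. Mcm7 was lowest, at 28.3 RPKM in pool 2, against 20.7 in pool 1. The highest subunit exceeded the lowest 2.37-fold in pool 2 and 2.68-fold in pool 1. Mcm2, Mcm4 and Mcm5 lay within 0.886 and 1.01 times the median subunit in both pools, and Mcm6 stood at 1.89 times it in pool 2 and 1.81 times in pool 1. Mcm10, which despite its name is no ring subunit and helps to start the assembled helicase, was far lower, at 1.01 RPKM in pool 2 (70 reads), against 0.864 in pool 1 (61 reads). The median MCM2-7 subunit was 35.2 times Mcm10 in pool 2 and 35.5 times in pool 1.

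The origin recognition complex was uneven. Orc2 to Orc6 formed a narrow band, in which the highest exceeded the lowest 1.37-fold in pool 2 and 1.46-fold in pool 1. Orc5 was at 21.0 RPKM in pool 2, against 18.0 in pool 1. Orc6 was at 19.3 RPKM in pool 2, against 13.6 in pool 1. Orc4 was at 16.2 RPKM in pool 2, against 14.5 in pool 1. The rest of the band lay just lower. Orc2 was at 15.4 RPKM in pool 2, against 14.6 in pool 1, and Orc3 at 15.3 RPKM in pool 2, against 12.3 in pool 1. Orc1, the largest subunit and in mammals the one whose protein varies with the cell cycle, stood apart at 0.535 RPKM in pool 2 (32 reads), against 0.312 in pool 1 (19 reads). The lowest of Orc2 to Orc6 was 28.6 times Orc1 in pool 2 and 39.5 times in pool 1. The median MCM2-7 subunit was 2.19 times the median of Orc2 to Orc6 in pool 2 and 2.11 times in pool 1.

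The loaders and their inhibitor differed widely in level. Cdt1, which brings the MCM ring to the origin, was at 23.2 RPKM in pool 2, against 18.0 in pool 1. Gmnn, its inhibitor (chromosome 13, 24751845 to 24761923), was at 17.8 RPKM in pool 2, against 10.6 in pool 1. Cdc6, the ATPase that recruits Cdt1, was at 1.65 RPKM in pool 2 (154 reads), against 0.936 in pool 1 (89 reads). Cdt1 thus exceeded Gmnn in both pools, 1.31-fold in pool 2 and 1.70-fold in pool 1, and Cdc6 was the lowest of the group.

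Among the genes that activate the loaded helicase, Gins4 was an exception in level. The GINS complex holds a copy of each of its subunits, yet Gins4 was at 38.7 RPKM in pool 2, against 36.0 in pool 1. Gins2 was at 6.85 RPKM in pool 2, against 4.29 in pool 1. Gins3 was at 6.04 RPKM in pool 2, against 3.61 in pool 1. Its other partner was lower again. Gins1 was at 3.21 RPKM in pool 2, against 2.34 in pool 1, so that Gins4 exceeded it 12.04-fold in pool 2 and 15.4-fold in pool 1. Cdc45, the third component of the active helicase, was at 4.99 RPKM in pool 2, against 3.21 in pool 1. The group of 6, with the undetected Mcm10, was higher in pool 2 throughout, against 57.3% of detected genes, but the counting intervals of Mcm10, Gins1, Gins2 and Gins4 reach below 1.

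Polymerase and primase genes spanned a range of levels. Pold1, the catalytic subunit of polymerase delta, which copies mainly the lagging strand, was at 20.01 RPKM in pool 2, against 20.8 in pool 1. Pola2, the accessory subunit of polymerase alpha, was at 18.4 RPKM in pool 2, against 17.1 in pool 1. Pola1, its catalytic partner and the only member on the X chromosome, was at 5.31 RPKM in pool 2, against 4.28 in pool 1. Catalytic and accessory subunits of this complex thus differed, Pola2 being 3.47 times Pola1 in pool 2 and 3.98 times in pool 1. The primase subunits, which lay down the RNA primers, were close to each other. Prim2 was at 12.8 RPKM in pool 2, against 10.2 in pool 1, and Prim1 at 10.9 RPKM in pool 2, against 9.94 in pool 1. Pole, the catalytic subunit of the leading-strand polymerase epsilon, was lowest at 2.23 RPKM in pool 2, against 1.93 in pool 1.

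Pcna, the sliding clamp (chromosome 2, 132249162 to 132253314), was at 65.6 RPKM in pool 2, against 55.7 in pool 1. Its loader, the RFC complex, was dominated by Rfc2, at 47.5 RPKM in pool 2, against 45.7 in pool 1. The other loader genes lay near 10 to 14 RPKM. Rfc4 was at 14.3 RPKM in pool 2, against 14.03 in pool 1. Rfc3 was at 12.7 RPKM in pool 2, against 9.36 in pool 1. Rfc5 was at 10.8 RPKM in both pools. Except Rfc3, the loader genes had log2 ratios within 0.1 of 0. Rfc1, the large subunit, was at 10.3 RPKM in pool 2, against 10.03 in pool 1, and Pcna exceeded it 6.38-fold in pool 2 and 5.55-fold in pool 1.

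The genes of the RPA complex, which coats single-stranded DNA in replication and repair, were abundant. Rpa1 was at 43.3 RPKM in pool 2, against 39.5 in pool 1. Rpa2 was at 38.1 RPKM in pool 2, against 29.6 in pool 1. Rpa3 was at 20.3 RPKM in pool 2, against 22.1 in pool 1, the reverse of the other subunits. The counting interval of its ratio (0.773 to 1.09) includes 1. Of the enzymes that process and seal Okazaki fragments, the flap nuclease Fen1 was at 27.9 RPKM in pool 2, against 22.8 in pool 1. The ligase Lig1 was at 13.2 RPKM in pool 2, against 13.1 in pool 1, with hardly any difference.

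The 4 genes of deoxynucleotide supply were higher in pool 2, against 57.3% of detected genes. Rrm1, the large subunit of ribonucleotide reductase, was at 33.2 RPKM in pool 2, against 25.0 in pool 1. Rrm2, the small subunit whose protein is present mainly in S phase, was at 13.5 RPKM in pool 2, against 7.81 in pool 1. Rrm1 exceeded Rrm2 2.46-fold in pool 2 and 3.20-fold in pool 1. Tk1, the cytosolic thymidine kinase (chromosome 11, 117815526 to 117826092), was at 6.81 RPKM in pool 2 (185 reads), against 3.32 in pool 1 (92 reads). Tyms, the thymidylate synthase, was at 3.35 RPKM in pool 2, against 2.43 in pool 1. The pseudogene row Tyms-ps was at 1.35 RPKM in pool 2, against 0.881 in pool 1, so that the split of reads between it and Tyms is uncertain.

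The last group joins genes that follow the fork. Chaf1b, a subunit of the histone chaperone CAF-1 that places histones on new DNA (chromosome 16, 93883901 to 93906115), was at 22.2 RPKM in pool 2 (842 reads), against 29.9 in pool 1 (1157 reads). Chaf1a, its large partner subunit, was at 3.20 RPKM in pool 2, against 2.14 in pool 1. The pair went in opposite directions, and Chaf1b was 6.93 times Chaf1a in pool 2 and 13.99 times in pool 1. Uhrf1, which helps Dnmt1 to copy DNA methylation, was at 5.51 RPKM in pool 2, against 3.35 in pool 1. Ung, which removes uracil from DNA, was at 7.16 RPKM in pool 2, against 5.17 in pool 1.

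Some rows share exon bases with another gene, and the strand setting of the authors' counting is not given in the sources used here. GENCODE M21 exons of Chaf1a overlap Ubxn6 over 4648 bases, those of Gins2 overlap Gse1 over 2758, those of Fen1 overlap Gm10143 over 1909, those of Orc2 overlap Nif3l1 over 1150 and those of Rfc2 overlap Lat2 over 952, each on the other strand. If strand was not used in counting, reads on these shared bases could come from any of these 5 genes or from its partner. The GENCODE exons need not be those behind the deposited rows, so how many of the shared bases were counted is not known.

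Nearly all members were higher in pool 2, most of them by little. Ratios were taken as pool 2 over pool 1 on the log2(RPKM + 0.1) scale. On that scale differences of low genes come out too small. Of the 43 detected members, 39 (90.7%) were higher in pool 2, against 57.3% of all 11013 detected genes, and their median log2 ratio was 0.29, against 0.04 for all detected genes. At 1.5-fold or more, 7 of 43 members (16.3%) were higher in pool 2, against 5.86% of detected genes. None of the 43 was lower by that much, against 2.6%. The 7 were Tk1 (log2 ratio 1.01), Rrm2 (0.78), Gmnn (0.74), Gins3 (0.73), Uhrf1 (0.70), Gins2 (0.66) and Cdc45 (0.62). Just short of the threshold lay Chaf1a at 0.56, and Cdc6 and Orc1, which are not among the 43, were at 0.76 and 0.63. At 2-fold only Tk1 was left, 1 of 43 members, against 1.6% of detected genes, and when genes 25% or more higher were counted, 18 of 43 members were, against 17.1%. With a pseudocount of 1 the 1.5-fold count was 4 of 43 members, against 3.98% of detected genes. Among genes with a mean of 5 RPKM or more it was 4 of 35 members, against 4.05%.

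The counting error of these ratios follows from the recovered reads. These are lower bounds, since a whole multiple of a gene length also fits, so the intervals may be wider than the true ones, and they cover counting error and not the variation between mice. The exact 95% interval (Clopper-Pearson) of the ratio lay above 1 for 27 of the 43 detected members (62.8%), against 31.2% of detected genes. It lay below 1 for Chaf1b alone, against 19.5% of detected genes. For Tk1 the ratio of depth-scaled reads was 2.05 (1.59 to 2.66), for Rrm2 1.73 (1.51 to 1.98), for Gmnn 1.68 (1.41 to 2.002) and for Chaf1b 0.742 (0.678 to 0.811). For Gins2, with 47 and 30 recovered reads in pools 2 and 1, it was 1.60 (0.989 to 2.61), and for Orc1 1.72 (0.944 to 3.21), both reaching below 1.

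**Figure D3:**
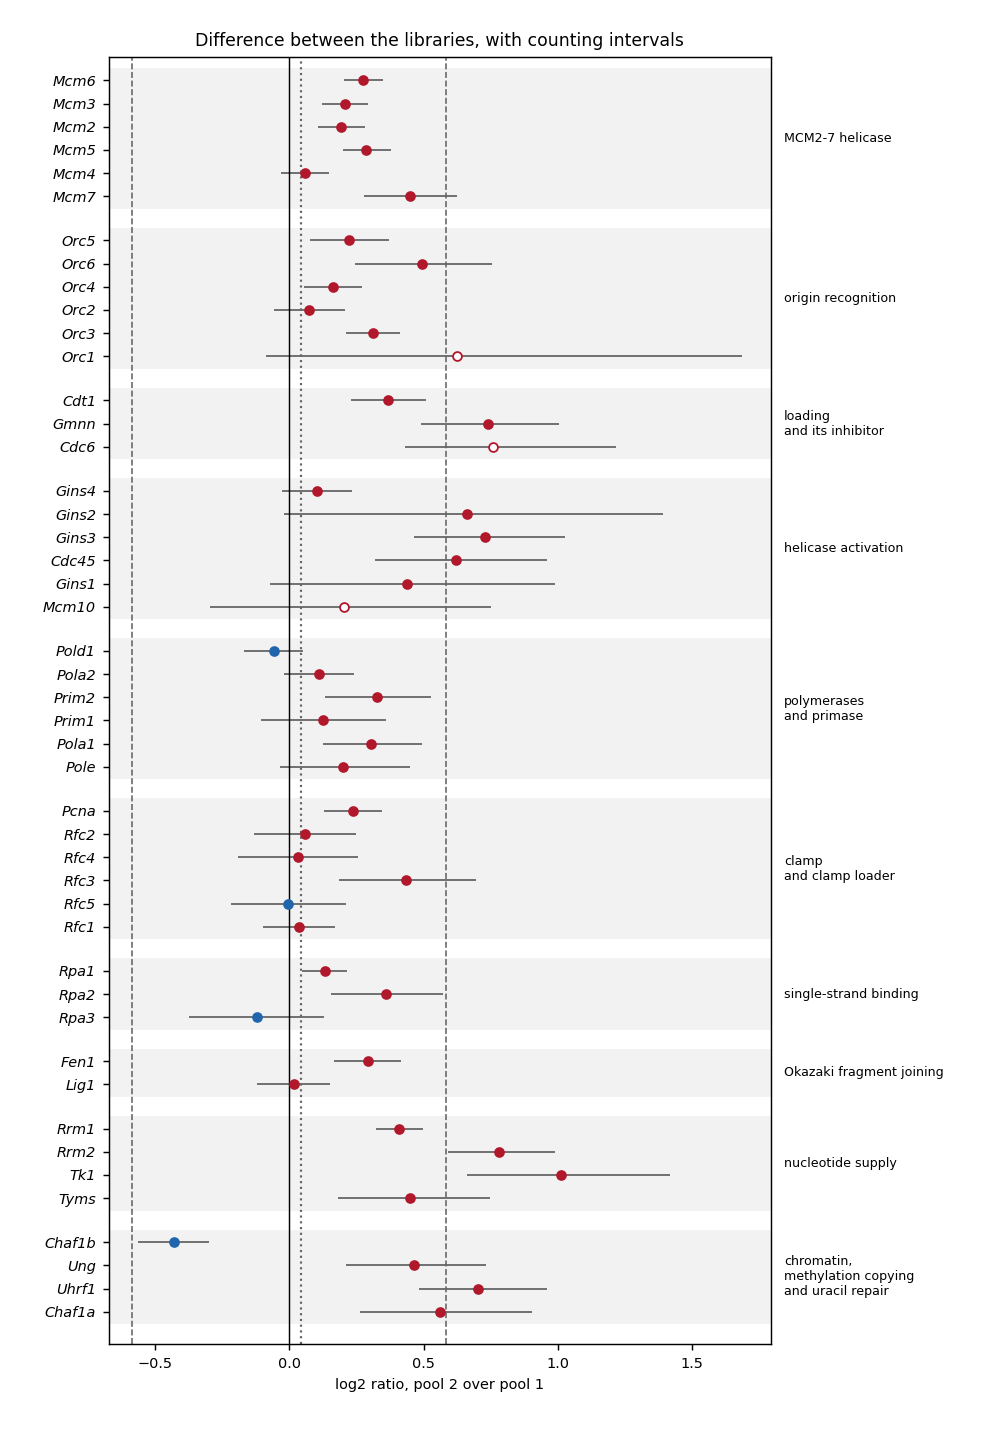
log2 ratio of pool 2 over pool 1 for each member, grouped by role, red where higher and blue where lower in pool 2, with open circles for the 3 members under 1 RPKM in a pool; horizontal lines are 95% counting intervals from recovered reads, the dashed lines mark 1.5-fold and the dotted line the median of all detected genes (0.04). Tk1 lies farthest to the right at 1.01, and Chaf1b alone has an interval wholly to the left of 0.

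The size of the difference varied with role. The median log2 ratio of detected members was 0.62 for helicase activation, 0.61 for nucleotide supply, 0.55 for Cdt1 and Gmnn, 0.51 for the chromatin group, 0.24 for MCM2-7, 0.22 for origin recognition, 0.16 for polymerases and primase, 0.15 for Fen1 and Lig1, 0.13 for RPA and 0.05 for clamp and clamp loader. These groups hold 2 to 6 detected genes each. Their median levels over all members also differed, from 4.46 RPKM for helicase activation to 33.9 RPKM for RPA. Role and level were not separated. A log2 ratio within 0.1 of 0 was seen for 8 of the 43 detected members (18.6%), Mcm4, Orc2, Pold1, Rfc1, Rfc2, Rfc4, Rfc5 and Lig1, against 31.8% of all detected genes. Partners in 1 complex could differ: Rrm2 was at 0.78 and Rrm1 at 0.41, Gmnn at 0.74 and Cdt1 at 0.37, Rfc3 at 0.44 and Rfc4 at 0.03, and Chaf1a at 0.56 and Chaf1b at -0.43.

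Members with lower levels differed more between the pools. Of the 11 detected members with a mean under 10 RPKM, 5 (45.5%) were 1.5-fold or more higher in pool 2, against 9.82% of detected genes in that range, and their median log2 ratio was 0.56, against 0.07. Of the 32 members at 10 RPKM or more, 2 (6.25%) were, against 3.31%, and their median was 0.20, against 0.03. Across the 46 members, Spearman's rho of level and ratio was -0.47 and Pearson's r -0.48, and across all detected genes rho was -0.08. These are correlations over genes of the same 2 libraries, which are not independent replicates, and the ratio of a low gene also carries more counting error.

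**Figure D4:**
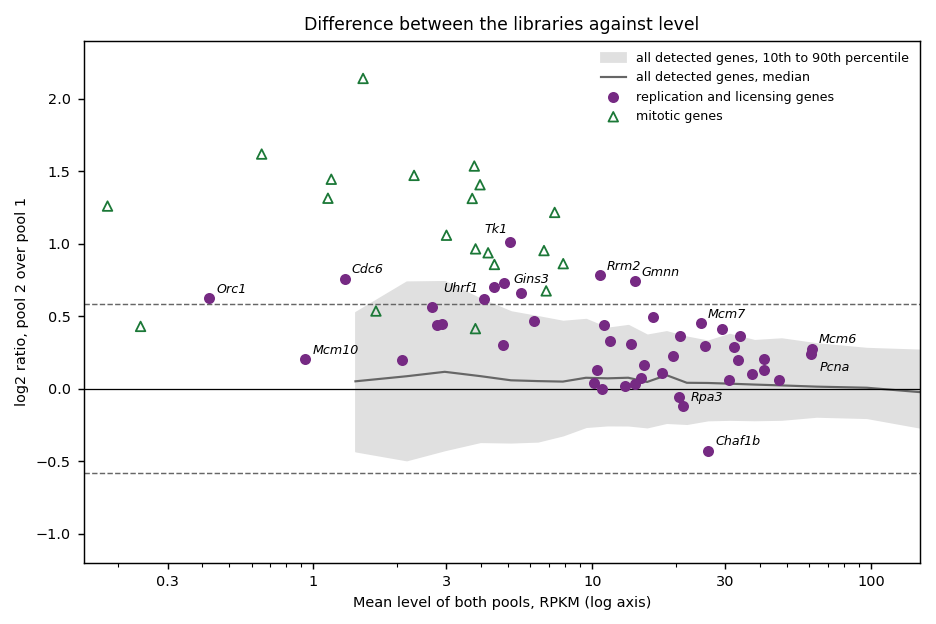
log2 ratio of pool 2 over pool 1 against the mean level in RPKM (log axis) for the 46 members (filled circles) and 20 mitotic genes (open triangles); the grey band spans the 10th to 90th percentile of all detected genes in 20 bins of level and the grey line is their median. Most members at high levels lie over the line. Tk1, Rrm2 and Gmnn are among the members over the band, Chaf1b lies under it, and most mitotic genes lie over the band.

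Members with and without E2F-type letters in the promoter window overlapped in level and in difference. The 14 with a match had a median level of 3.76 (log2) and a median log2 ratio of 0.34, with a range of -0.06 to 0.76. The 24 without one had a median level of 3.93 and a median ratio of 0.21, with a range of -0.43 to 1.01. The ranges overlap. At 1.5-fold or more, 4 of the 14 with a match were higher in pool 2 and 3 of the 24 without one, against 5.86% of detected genes. Cdc6 and Orc1, which were not detected, are among the 4. Tk1 and Rrm2, with the largest ratios of the list, hold no match in these windows. Cdc6, with a match, was at 0.76. Mcm5 and Mcm6, whose promoters are printed above with overlapping pairs, were at 0.29 and 0.28. Whether the letters go with the difference was not tested.

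Other genes of replication, a further 46 that are not members, were also mostly higher in pool 2, and whether they differ from the members was not tested. They include subunits of polymerases delta and epsilon, fork protection and checkpoint genes, histone chaperones and nucleotide enzymes. Of them, 39 (84.8%) were detected, against 40.5% of all gene rows. Of the 39, 30 (76.9%) were higher in pool 2 and 9 lower, against 57.3% of all detected genes higher. Their median log2 ratio was 0.19, against 0.04. At 1.5-fold or more, 5 of 39 were higher in pool 2, against 5.86% of detected genes, and 0 were lower by that much, against 2.6%. Among the 5 were Dtl, part of the ligase that removes Cdt1 in S phase, at 2.41 RPKM in pool 2, against 1.13 in pool 1, Asf1b, a histone chaperone, at 14.2 and 7.86 in pools 2 and 1, Pole2, a polymerase epsilon subunit, at 2.86 and 1.78, and Dbf4, the partner of the Cdc7 kinase, at 7.86 and 5.02. The highest of this list were Samhd1, which breaks down deoxynucleotides, at 390.3 RPKM in pool 2, against 415 in pool 1, Ssrp1, a histone chaperone subunit, at 128 and 133, and Rnaseh2c, a subunit of the enzyme that removes RNA from DNA, at 111 in both. The lowest was Exo1, an exonuclease, at 0.705 and 0.180 RPKM in pools 2 and 1. Exo1, the checkpoint genes Chek1 and Clspn and the nuclease-helicase Dna2, all under the detection threshold, were also 1.5-fold or more higher in pool 2.

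Mitotic genes had lower levels and larger ratios than most members. The 20 listed mitotic genes had a median of 4.72 RPKM in pool 2, against 1.9998 RPKM in pool 1. Of the 20, 14 (70%) were detected, against 40.5% of all gene rows. On the log2 scale the members' median lay higher than theirs by 1.68 in pool 2 and by 2.68 in pool 1. Over both pools, 32 of 46 members exceeded every mitotic gene, and 0 of 20 mitotic genes exceeded the median member. At a mean of 10 RPKM or more stood 32 of the 43 detected members, against 6707 of 11013 detected genes. The highest mitotic gene was at 7.86 RPKM. Detected genes between that level and 10 RPKM also exceeded every mitotic gene and are not in this count. The median of all detected genes was 14.6 RPKM. All 14 detected mitotic genes were higher in pool 2, against 57.3% of all detected genes, with a median log2 ratio of 0.96. By 1.5-fold or more, 12 of the 14 were higher, against 5.86% of detected genes and 9.82% of those under 10 RPKM, where every listed mitotic gene lies. The highest were Ccnb2, a mitotic cyclin, at 10.2 RPKM in pool 2, against 5.55 in pool 1, Top2a, which untangles DNA, at 10.3 and 4.37, and Cdc20, an activator of the anaphase-promoting complex, at 8.42 and 5.24. The other detected ones 1.5-fold or more higher in pool 2 were Bub1b (log2 ratio 1.54), Kif11 (1.47), Nusap1 (1.41), Plk1 (1.31), Birc5 (1.06), Aurkb (0.96), Ccna2 (0.95), Cdk1 (0.94) and Aurka (0.86). Apart from Ccna2, a cyclin gene, these are genes of the spindle, its checkpoint and the mitotic kinases. The undetected Ndc80, Ccnb1, Bub1, Ttk and Cenpf lay past that fold as well, and Cenpf was the lowest, at 0.299 RPKM in pool 2, against 0.0667 in pool 1. The proliferation marker Mki67 was at 2.002 RPKM in pool 2, against 1.35 in pool 1, and Mcm2 was 17.8 times it in pool 2 and 23.0 times in pool 1.

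**Figure D5:**
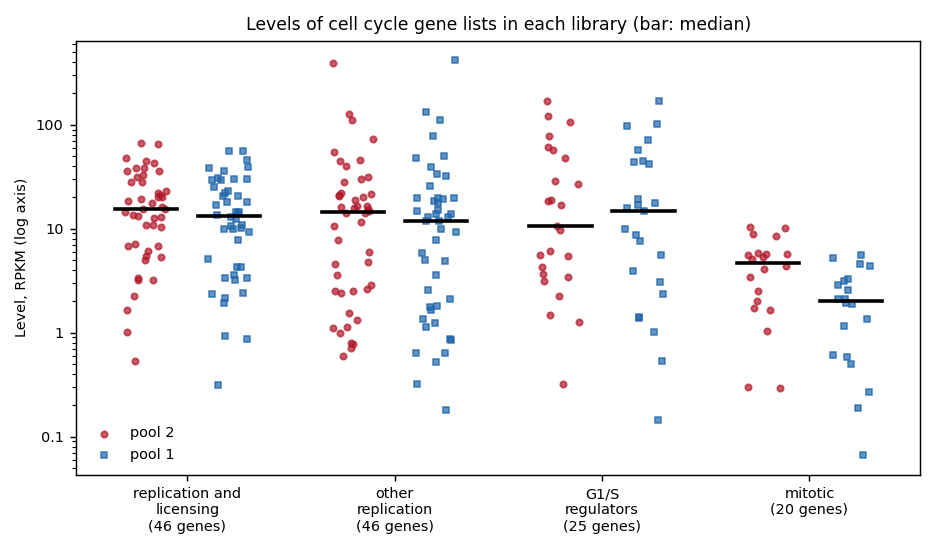
Levels in RPKM (log axis) of the members, of 46 other replication genes, of 25 G1/S regulators and of 20 mitotic genes, with pool 2 as red circles left of pool 1 as blue squares and a black bar at each median. The medians of the members are 15.3 and 13.4 RPKM in pools 2 and 1, and those of the mitotic genes 4.72 and 1.9998.

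Markers of other bone marrow cells were also mostly higher in pool 2. Each count of higher markers below stands against 57.3% of all detected genes. The summed level of 13 erythroid markers was 1958 RPKM in pool 2, against 721 in pool 1, with 11 of 12 detected markers higher in pool 2. For 10 neutrophil markers it was 2509 RPKM in pool 2, against 1071 in pool 1 (10 of 10 higher), for 8 eosinophil markers 659 and 59.7 (7 of 7 detected higher), and for 10 B cell markers 64.3 and 36.9 (2 of 2 detected higher). For 8 stem and early progenitor markers the sums were 95.6 RPKM in pool 2, against 68.5 in pool 1 (4 of 4 detected higher), and for 7 T cell markers 454 and 286 (6 of 6 detected higher), with Cd8a at 0 in both pools and no other listed marker at 0 in both. The 3 highest erythroid markers were the globins Hba-a2 at 830.4 RPKM in pool 2, against 284 in pool 1, Hbb-bs at 516 and 185, and Hba-a1 at 385 and 134. The 3 highest neutrophil markers were S100a9 at 842 and 324 RPKM in pools 2 and 1, S100a8 at 755 and 288, and Ngp at 291 and 121. Among eosinophil markers these were Prg2 at 471 and 27.2, Ear6 at 64.3 and 6.66, and Ear2 at 34.2 and 9.74, and among T cell markers Cd3g at 195 and 104, Cd3d at 97.4 and 63.4, and Cd3e at 78.3 and 45.8. Among stem and early progenitor markers they were Hlf at 59.3 and 51.2, Kit at 22.05 and 11.1, and Slamf1 at 5.74 and 3.26, and among B cell markers Cd79b at 47.8 and 33.5, Pax5 at 5.09 and 0.123, and Dntt at 3.88 and 0.604. The 12 ILC2 markers summed to 2696 RPKM in pool 2, against 2962 in pool 1, 6 of 12 being higher in pool 2, and the 3 highest were Thy1 at 510.5 and 558 RPKM in pools 2 and 1, Id2 at 287 and 709.7, and Il7r at 466 and 356. The part of these other cells in the difference of the replication genes was not tested.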

How the data were processed

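RNA of sorted ILC2 progenitors was sequenced from 100 ng of total RNA per library with a TruSeq RNA kit, per the labels' protocols, in 2 libraries of 1 group. The authors deposited RPKM for 27179 Entrez gene IDs per library. Named in the submitters' processing notes, with no role or order, are CASAVA 1.8.2, featureCounts, edgeR 3.8.2, edgeR 3.22.0 and the mm10 build. The aligner was not given in the sources used here. Python 3.11.15, numpy 2.4.6, pandas 2.3.3 and scipy 1.17.1 were used. Library totals were found as the largest numbers for which gene lengths come out whole, and for 17233 of 17233 genes above 0 (100%) some length from 20 to 130000 bases turned both values into whole reads to within their rounding, against 0.8% of 1000 genes with wrong totals. The search was tested on simulated data. Levels are log2(RPKM + 0.1), and 1 RPKM in both pools is the detection threshold. No count model was run, since the deposited values are not counts. There being 1 group, no test between conditions was possible, and the shares of all detected genes stand beside those of the members. Every member was named. Of the other lists, the 3 highest and the lowest genes and those 1.5-fold apart were named, and of marker lists the 3 highest where genes are named. A gene that this rule takes is not reported here. Some genes in comparisons of partners were chosen after their values were seen. Members and lists were chosen with earlier results of these data known. Coordinates of genes are from GENCODE M21 and promoter windows from RefSeq.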

Additional observations from a re-analysis of the deposited data

How the results depend on the processing

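The members' median log2 ratio was 0.29 as deposited and stayed positive under each scaling tried: the ratios were centred on all detected genes (a shift of 0.04), scaled to the same sum (-0.02) or scaled by a trimmed mean of ratios of recovered reads (0.05). Over these, other pseudocounts and other filters on low values it was 0.22 to 0.30. For 1 gene, each of 2 pools lies within 1 SD of their mean by construction, so leaving out a pool says nothing about stability. A median over genes need not do so, though 2 pools remain too few to show its stability. For the clamp and clamp loader group, pool 2 alone lay further from the level of both pools than the SD, 0.09. The count of 7 members 1.5-fold or more higher in pool 2 became 4 of 43 with a pseudocount of 1 (3.98% of detected genes), 4 of the 35 with a mean of 5 RPKM or more (4.05% of such genes), 18 of 43 when members 25% or more higher were counted (17.1% of detected genes) and 1 at 2-fold (1.6%). For the other replication genes the count of 5 became 16 at 25% and 1 at 2-fold. The members' median level of 3.81 was 4.53 in depth-scaled reads not divided by length. With each pool alone, the level of the clamp and clamp loader group was 3.64 to 3.77, against 3.65. Without the 5 members that overlap another gene by 500 exon bases or more, an alternative chosen after seeing the data, as was the division at 10 RPKM, the median ratio was 0.28. With 1 pool left out no difference between pools can be computed. No paired analysis was possible because there is 1 group. Depth limits Orc1 and Gins1, which rest on 74 or fewer recovered reads a pool and whose intervals reach below a ratio of 1. The intervals of Mcm10 and Gins2 reach below 1 too, but whether depth limits them is not known. The 70 and 61 reads of Mcm10 in pools 2 and 1 are lower bounds from a recovered length of 3494 bases, against 7692 annotated exon bases. For Gins2, the 47 and 30 reads are lower bounds from a recovered length of 346 bases, against 4097 annotated exon bases.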

Other observations

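Regulators of the step from G1 to S phase, 25 listed genes, included genes higher and genes lower in pool 2. Of the 25, 23 (92%) were detected, against 40.5% of all gene rows. Of the 23, 17 (73.9%) were higher in pool 2 and 6 lower, against 57.3% of all detected genes higher, with a median log2 ratio of 0.13, against 0.04. By 1.5-fold or more, 3 were higher, against 5.86% of detected genes, and 2 lower, against 2.6%. Those 1.5-fold or more higher in pool 2 were Ccne1, cyclin E1, at 3.14 RPKM in pool 2, against 1.42 in pool 1, E2f2, an activating E2F factor, at 6.16 and 3.05, and E2f8, a repressing one, at 2.25 and 1.38. Those lower by as much were Cdkn1a, which encodes the CDK inhibitor p21, at 4.28 RPKM in pool 2, against 16.7 in pool 1, and Rb1, the retinoblastoma protein that holds E2F factors in check, at 26.9 and 41.8. The highest of the list were Cdk4 at 171 RPKM in pool 2, against 168 in pool 1, Ccnd2, cyclin D2, at 121 and 102, and Rbl2, an Rb relative of resting cells, at 106 and 96.3. Ccne2, under the detection threshold, was at 1.27 and 0.538. The lowest was E2f7, also past 1.5-fold, at 0.322 and 0.145 RPKM in pools 2 and 1.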
